A study of Mus musculus with 20 samples.

Results

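Antigen presentation in the mouse heart was examined through 9 genes, selected by name from the 23420 genes of the count table. The class I genes were *H2-K1*, *H2-D1*, *B2m* and *Tap1*, and the class II genes were *H2-Aa*, *H2-Ab1*, *H2-Eb1*, *Cd74* and *Ciita*. All 9 passed the filter of at least 1 CPM (a gene's read pairs scaled to library size) in at least 10 mice and were among the 13590 genes tested. Whole hearts came from 10 control mice and from 10 with iron-deficiency anemia (IDA mice). All were wild-type C57BL/6 males (C57BL/6J in the methods) of 9 weeks, with no transgene. The control mice ate an iron-adjusted diet, and the IDA mice an iron-deficient diet, for 6 weeks from 3 weeks of age. The labels set the iron of the deficient diet against 2 ppm, as below it in 1 field and above it in another.

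MHC class I molecules show peptides from inside the cell to cytotoxic T cells, and nearly every nucleated cell makes them. The heavy chain pairs with beta-2-microglobulin and is filled with peptides that the proteasome cuts and the TAP transporter carries into the endoplasmic reticulum. MHC class II molecules show peptides from engulfed material to helper T cells, and in the resting heart they are carried mainly by macrophages, dendritic cells and B cells. Transcription of class II genes depends on the transactivator CIITA, and that of class I genes in part on its relative NLRC5. Both act through factors bound to short promoter elements.

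Promoter sequences of RefSeq (GRCm38.p6, the mm10 assembly) were found for 6 of the 9 genes, and not for *H2-Ab1*, *Cd74* and *Ciita*. Stretches before the start of 5 of them are shown, because they hold the elements through which the transactivators are known to act on these genes, and the later results compare the genes that share them. The motifs searched, on both strands, were GGGNNTTNC (of the kappa B type), AANNGAAA (of the interferon-stimulated response type), TGACG (the core of the X2 box or cyclic AMP response element), CCAAT (the Y box) and GCAAC (part of an RFX site, in the X1 box). They were chosen with the known layout of these promoters in view. Capitals mark the matches, and each stretch reads 5′ to 3′ on the strand of the gene. The class I and *B2m* stretches are marked for GGGNNTTNC, AANNGAAA, TGACG and CCAAT, with ATTGG its reverse complement.
H2-K1 (chr17:34000334-34000463, minus strand): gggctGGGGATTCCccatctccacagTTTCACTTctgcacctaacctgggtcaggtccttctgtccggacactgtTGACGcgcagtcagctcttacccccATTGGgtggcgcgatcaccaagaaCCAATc
H2-D1 (chr17:35262918-35263050, plus strand): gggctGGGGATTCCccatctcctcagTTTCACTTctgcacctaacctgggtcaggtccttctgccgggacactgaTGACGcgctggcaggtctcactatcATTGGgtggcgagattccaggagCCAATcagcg
B2m (chr2:122147545-122147643, plus strand): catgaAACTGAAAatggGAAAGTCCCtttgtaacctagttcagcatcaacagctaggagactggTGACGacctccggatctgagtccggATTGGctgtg

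*H2-K1*, *H2-D1* and *B2m* each held all 4 motifs in the 250 bases before the start, as did the class II gene *H2-Aa*, and in *B2m* the AANNGAAA match came first. *H2-K1* and *H2-D1* were identical at 180 of these 250 bases when aligned. Of 32851 promoters of 300 bases, 15.2% held GGGNNTTNC, 23.9% AANNGAAA, 20.8% TGACG and 37.4% CCAAT. The class II stretches are marked for GCAAC and, as before, for TGACG and for CCAAT, of which GCAAC occurred in 35.2% of all promoters.
H2-Aa (chr17:34287862-34287909, minus strand): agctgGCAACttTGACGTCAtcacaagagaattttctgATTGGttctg
H2-Eb1 (chr17:34305771-34305841, plus strand): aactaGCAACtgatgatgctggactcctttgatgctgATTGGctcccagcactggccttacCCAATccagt

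In both class II promoters GCAAC preceded ATTGG. Between them *H2-Aa* held TGACG on each strand, overlapping as a palindrome, and *H2-Eb1* had no TGACG in this window. *Tap1* held TGACG once, CCAAT once and GCAAC once, and neither of the other motifs.

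In the control heart the class I and class II genes other than *Tap1* and *Ciita* were among the more strongly expressed genes. Per kb of exonic sequence that no other gene shares, *B2m*, the light chain of every class I molecule, had the highest level, at 154 ± 14.2 CPM per kb (SD, n = 10). The heavy chain *H2-K1*, at 110.4 ± 10.8, and the invariant chain *Cd74*, which guards the class II groove, at 109 ± 9.99 CPM per kb, were not separable, and 4 of 10 control mice had *H2-K1* above *Cd74*. The heavy chain *H2-D1* followed at 97.6 ± 8.58 CPM per kb, below *Cd74* in 9 of 10 control mice. The class II chains followed in an order held by all 10 control mice, although the ranges of neighbours overlapped: *H2-Aa*, the alpha chain of I-A, had 83.2 ± 10.7 CPM per kb, its beta chain *H2-Ab1* 68.1 ± 8.53, and the beta chain of I-E, *H2-Eb1*, 47.4 ± 6.12. *Tap1*, a subunit of the peptide transporter, had 13.9 ± 5.32 CPM per kb. *Ciita* had 1.10 ± 0.38 CPM per kb and rested on 24 to 83 read pairs in a control mouse and 18 to 40 in an IDA mouse. The other members had from 197 read pairs (*Tap1*) to 1710 (*H2-K1*) in a mouse. The alpha chain of I-E is not functional in C57BL/6 mice, and the corresponding row, *H2-Ea-ps*, held 1 read pair over all 20 mice.

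The counting affects some of these levels. Of the 1736 exonic bp of *H2-D1*, 1060 overlap exons annotated to *H2-L*. Read pairs that touch both genes are not counted by default, and *H2-L* held 21 read pairs over all mice. The counts of *H2-D1* therefore rest mainly on 676 bp, of which 632 bp are its last exon (chr17:35266866-35267497). The coding exons that hold the peptide groove are not among them, apart from 12 bp of exon 2. The gene spans chr17:35263094-35267497, and its level per kb is uncertain for this reason. In the GENCODE transcripts, 7.10% of the 75-base words of *H2-D1*, 1.33% of those of *H2-K1* and 0% of those of the other 7 members occur in another gene, so reads of the 2 heavy chains can in small part be exchanged. Duplicate read pairs were removed, and the gene with most read pairs per exonic base reached between 2.06 and 2.39 of them in each mouse. *B2m* had a mean of 1.18 pairs per base, as high as or higher than all but 1.11% of tested genes, and *H2-K1* had 0.87.

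Read-pair totals ran from 6797180 to 8960688 in control and from 6682177 to 7833916 in IDA mice. The sum of 8 cardiomyocyte genes lay between 6069.95 and 9312 CPM in control mice and between 4910.5 and 7751 CPM in IDA mice. Of 6 tested erythroid genes 5 were higher in IDA, with list sums of 387 to 492.96 CPM (control) and 469 to 1118 CPM (IDA), and *Hba-a1* and *Hba-a2* were at 0 in all mice. Over all tested genes, log2 fold changes fell with exonic length, from a median of 0.34 in the tenth with the shortest exons (median 881 bp) to -0.53 in the tenth with the longest (median 7761 bp). Each comparison is therefore given both as tested and with a smooth trend on exonic length removed from each mouse, called the gene length correction. Whether the trend is technical or biological was not tested. In whole hearts, fewer cells of a type and less RNA per cell cannot be told apart.

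Between the diets, 3 of the 9 genes were higher in IDA, *H2-K1*, *H2-D1* and *Cd74*, by 1.12-fold to 1.21-fold, where 35.0% of all tested genes were higher. *Ciita* was lower, 1 of 9, at 0.658 of the control level, where 32.5% of all tested genes were lower. These calls use edgeR's quasi-likelihood test with an adjusted p below 0.05. With the gene length correction, 1 was higher (*H2-D1*, background 31.5%) and 3 were lower (*B2m*, *H2-Aa* and *H2-Ab1*, background 23.5%). Without the correction the share of higher members is close to the background and that of lower members is below it. With it, the share of higher members is below the background and that of lower members somewhat above it. The ranges of control and IDA mice overlapped for all 9 genes. Of all tested genes, 11.3% had ranges that did not overlap, and with only 9 members, 0 is near that share.

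**Figure D1:**
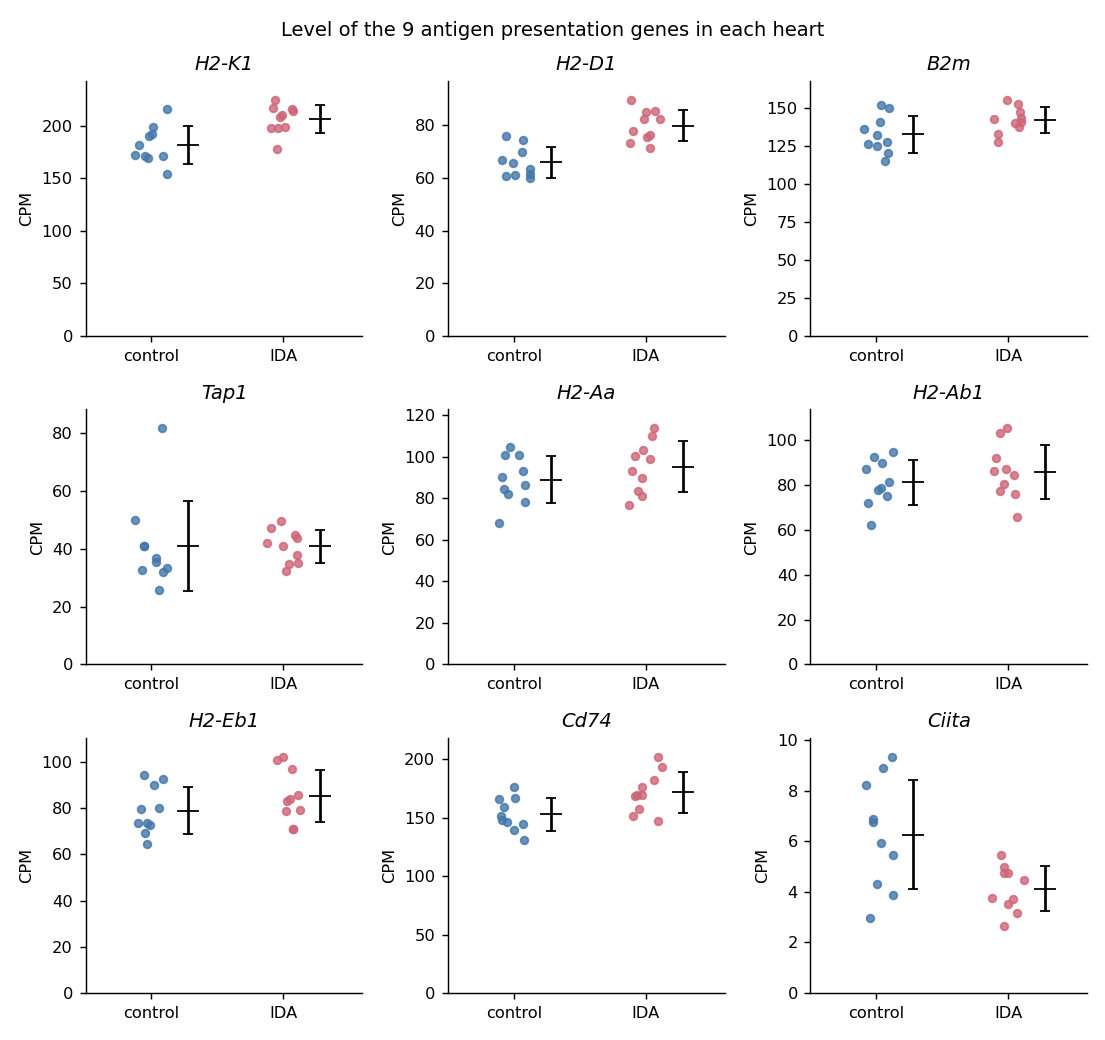
Level of each of the 9 genes in CPM (vertical axes, from 0) in 10 control hearts (blue) and 10 IDA hearts (red). Points are mice, and bars give the mean and SD. The groups overlap in every panel, *Tap1* has 1 control mouse at 81.6 CPM, and all 10 IDA mice lie below the control mean of *Ciita*.

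*H2-D1* showed the clearest difference among the class I genes. Its control hearts ran from 59.8 to 75.98 CPM with a median of 64.5, and its IDA hearts from 71.3 to 89.6 CPM with a median of 80.2. All 10 IDA mice lay above the control mean, and 7 of them above the highest control mouse. The means were 66.0 ± 5.80 CPM (SD, n = 10) and 79.9 ± 5.93 CPM (SD, n = 10), a log2 fold change of 0.28 (standard error 0.05, adjusted p = 7.25e-05 from edgeR with Benjamini-Hochberg adjustment over 13590 genes). With the gene length correction the value was 0.11 (standard error 0.04, adjusted p = 0.0222). When the correction used the 676 bp that are its own, a choice made after the data were seen, the value turned to -0.06 (adjusted p = 0.14), so the corrected direction of *H2-D1* depends on which length is taken. With length and GC content corrected together it was 0.00053 (adjusted p = 0.99).

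*H2-K1* (chr17:33996012-34000333) ran from 154 to 216 CPM in control hearts, with a median of 177, and from 178 to 224 CPM in IDA hearts, with a median of 209. Most IDA mice were high, 9 of 10 above the control mean, and 5 control mice lay below the lowest IDA mouse. Log2 fold change stood at 0.18, with a standard error of 0.05 (adjusted p = 0.00366, edgeR). The 1000 tested genes of nearest length had a median log2 fold change of 0.23, and 58.2% of them were higher. With the gene length correction the value for *H2-K1* was 0.0028 (95% interval -0.09 to 0.09, adjusted p = 0.96). With library size as a covariate it was 0.09 (adjusted p = 0.14).

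*B2m* (chr2:122147687-122153082) ran from 115 to 152 CPM in control hearts, with a median of 129.9, and from 128 to 155 CPM in IDA hearts, with a median of 142. The groups overlapped widely, although 9 of 10 IDA mice were above the control mean. The log2 fold change was 0.10 (95% interval -0.0018 to 0.20, adjusted p = 0.076, edgeR) and did not pass the test. At 858 bp *B2m* is the shortest of the 9, and the genes of nearest length had a median of 0.34, so the gene length correction gave -0.21 (standard error 0.04, adjusted p = 0.000367). After a correction for GC content as well, it was -0.05 (adjusted p = 0.27).

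*Tap1* (chr17:34187556-34197225) ran from 25.8 to 81.6 CPM in control hearts, with a median of 36.1, and from 32.2 to 49.7 CPM in IDA hearts, with a median of 41.4. The highest value belonged to control mouse 9, and the next control mouse had 49.9 CPM. The log2 fold change was -0.0028 (95% interval -0.31 to 0.31, adjusted p = 0.99, edgeR) and 0.04 with the gene length correction (adjusted p = 0.82). Without control mouse 9 these became 0.17 and 0.21, and neither passed the test (adjusted p = 0.15 and 0.092, edgeR).

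Among the class II genes, *Cd74* on chromosome 18 was the only one of the 4 structural genes called without the correction. It ran from 131 to 177 CPM in control hearts, with a median of 149.8, and from 147 to 202 CPM in IDA hearts, with a median of 169.6. IDA mice were mostly high, 8 of 10 above the control mean and 3 above the highest control mouse. This gave a log2 fold change of 0.17, with a standard error of 0.06 (adjusted p = 0.0162, edgeR), and genes of nearest length had a median of 0.26. The gene length correction gave -0.06 (95% interval -0.17 to 0.06, adjusted p = 0.41). With GC content corrected as well, *Cd74* was called lower, at -0.17 (adjusted p = 0.0195), and with library size as a covariate it had 0.05 (adjusted p = 0.49).

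*H2-Aa* (chr17:34282751-34287771) ran from 68.3 to 105 CPM in control hearts, with a median of 88.3, and from 76.7 to 114 CPM in IDA hearts, with a median of 96.2. *H2-Ab1* (chr17:34263227-34269418) ran from 62.1 to 95.05 CPM in control hearts, with a median of 80.2, and from 65.6 to 105 CPM in IDA hearts, with a median of 85.4. *H2-Eb1* (chr17:34305867-34316674) ran from 64.7 to 94.3 CPM in control hearts, with a median of 76.5, and from 71.0 to 102 CPM in IDA hearts, with a median of 83.6. In all 3 the groups lay almost on top of each other, with 6 or 7 of 10 IDA mice above the control mean. The log2 fold changes were 0.10 for *H2-Aa*, 0.08 for *H2-Ab1* and 0.11 for *H2-Eb1*, with adjusted p-values from 0.21 to 0.39 (edgeR). Their 95% intervals reached no higher than 0.27 and no lower than -0.09. The gene length correction gave *H2-Aa* -0.18 (adjusted p = 0.043), *H2-Ab1* -0.18 (adjusted p = 0.0488) and *H2-Eb1* -0.07 (adjusted p = 0.46). The first 2 passed the threshold narrowly: over the 20 fits that each left out 1 mouse, *H2-Aa* stayed past it in 9 and *H2-Ab1* in 6. With GC content corrected as well, *H2-Aa* had -0.10 and did not pass (adjusted p = 0.29), whereas *H2-Ab1* had -0.30 (adjusted p = 0.0032).

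*Ciita* (chr16:10480072-10527564) fell. Control hearts ran from 2.97 to 9.34 CPM with a median of 6.34, and IDA hearts from 2.66 to 5.45 CPM with a median of 4.11. All 10 IDA mice lay below the control mean, and 7 control mice above the highest IDA mouse. The means were 6.27 ± 2.16 and 4.12 ± 0.89 CPM (SD, n = 10 each), a log2 fold change of -0.60 (standard error 0.19, adjusted p = 0.00648, edgeR). At 5693 bp it is the longest of the 9 genes, and genes of nearest length had a median of -0.35, with 68.9% of them lower. With the gene length correction the value was -0.23 (95% interval -0.59 to 0.12, adjusted p = 0.26), and with GC content as well -0.44 (adjusted p = 0.042). With library size as a covariate it was -0.41 and did not pass (adjusted p = 0.12).

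**Figure D2:**
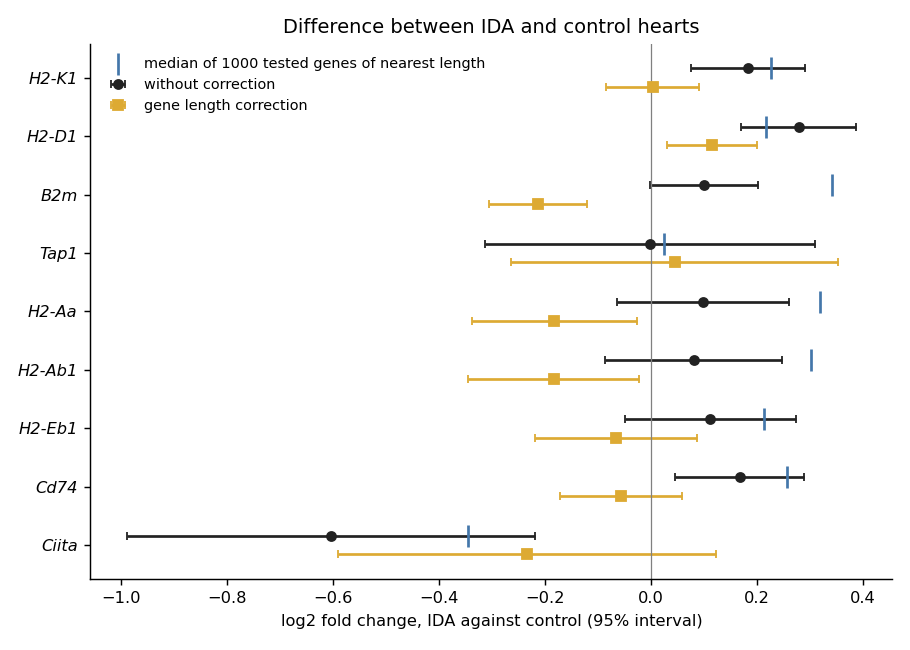
Log2 fold change of IDA against control (horizontal axis) for the 9 genes, as tested (black) and with the gene length correction (yellow), with 95% intervals. Blue marks give the median of the 1000 tested genes of nearest length. *B2m*, *H2-Aa* and *H2-Ab1* move from slightly above 0 to below it, and *Ciita* moves from -0.60 to -0.23.

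Set against genes of their own length, 8 of the 9 genes had a fold change below the median and 1, *H2-D1*, above it. For *H2-D1* this length was the full 1736 bp, although its counts rest mainly on 676 bp. With the correction on its own bases its value was -0.06, so its place above the median depends on the length taken. By construction, a gene is as likely to lie below such a median as above it. The gap was smaller than the standard error for *Tap1* (-0.0028 against 0.02, standard error 0.15) and *H2-K1* (0.18 against 0.23, standard error 0.05). For the other members it was larger. With the gene length correction, *Tap1* had 0.044, and the median of all tested genes was 0.038. The 4 structural class II genes moved together from mouse to mouse, so they are not 4 separate cases.

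**Figure D3:**
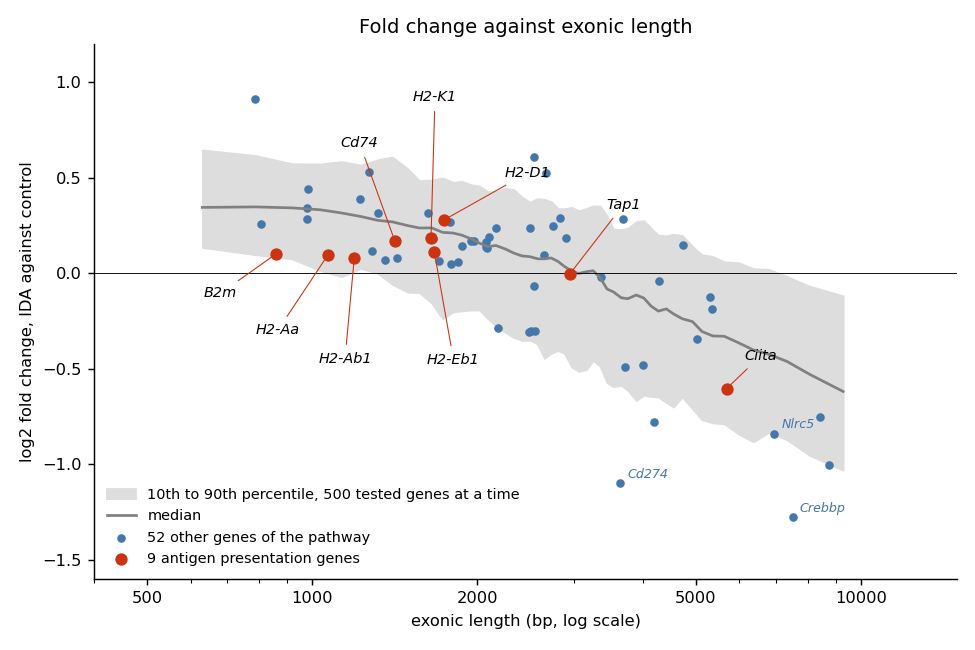
Log2 fold change of IDA against control (vertical axis) on exonic length in bp (log scale). The grey line and band give the median and the 10th to 90th percentile of tested genes, red points the 9 genes and blue points 52 other genes of the pathway. The median falls with length, the class II chains lie below it, and *Cd274* and *Crebbp* are among the points below the band.

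The class II genes rose and fell together from mouse to mouse within a diet. Among *H2-Aa*, *H2-Ab1*, *H2-Eb1* and *Cd74*, Pearson's r of log2 CPM over the 10 control mice ran from 0.86 to 0.96 in the 6 pairs, and over the 10 IDA mice from 0.89 to 0.97. Spearman's rho ran from 0.82 to 0.99 in each group. All 12 values passed a two-sided permutation test (100000 resamples, adjusted p from 0.00018 to 0.00698 over the 72 relations among the 9 genes). Without the 2 mice farthest from the median, r ran from 0.74 to 0.95 in control and from 0.89 to 0.96 in IDA mice. Within the 7 IDA mice whose column names carry the lower stretch of library numbers it ran from 0.94 to 0.98, and the other stretches held too few mice of a group for a value. Once length was corrected the 6 pairs had r from 0.88 to 0.97 in control and from 0.83 to 0.97 in IDA mice, and all passed by Pearson's r, but 4 of 6 control pairs passed by Spearman's rho and the lowest control r without the 2 farthest mice was 0.45. The values of a mouse share a library and its depth.

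*H2-K1* and *H2-D1*, which share promoter sequence and some read-length words, also moved together, with r = 0.90 in control (rho = 0.95) and r = 0.89 in IDA mice (rho = 0.85, two-sided permutation tests, adjusted p = 0.00158 and 0.00258). Without the 2 farthest mice r was 0.83 in each group. Corrected for gene length, r was 0.81 in control and 0.79 in IDA mice, where Spearman's rho did not pass in IDA mice (0.73, permutation test, adjusted p = 0.0855) and r without the 2 farthest mice was 0.49. Other class I pairs moved together too. By uncorrected Pearson's r, *Tap1* passed with *H2-K1* in control (0.79) and IDA mice (0.78). It passed with *H2-D1* in IDA mice only (0.90). *B2m* passed with *H2-K1* (0.75) and *H2-D1* (0.89) in control mice only. With the correction, *Tap1* passed with *H2-K1* in control and with *H2-D1* in IDA mice, and *B2m* with neither. Whether shared sequence played a part was not tested. Across the classes, *H2-K1*, *H2-D1* and *B2m* with the 4 structural class II genes had r from 0.27 to 0.73 in control mice. In IDA mice r ran from 0.41 to 0.68, and none of the 12 pairs passed in either group. Without the 2 farthest mice r ran from -0.30 to 0.50 and from 0.02 to 0.49. With the correction, *B2m* passed with *Cd74* in control mice (r = 0.78, rho = 0.92, permutation tests, adjusted p = 0.0209 and 0.00936). *Ciita* did not pass with any of the 4 structural class II genes. Its r ran from 0.27 to 0.56 in control and from -0.19 to 0.01 in IDA mice (permutation tests, lowest adjusted p = 0.21). After the gene length correction, 2 of the 4 control relations of *Ciita* passed (lowest adjusted p = 0.0282), and without the 2 farthest mice r then ran from 0.03 to 0.55. The part of counting error in the spread of *Ciita* was not tested.

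**Figure D4:**
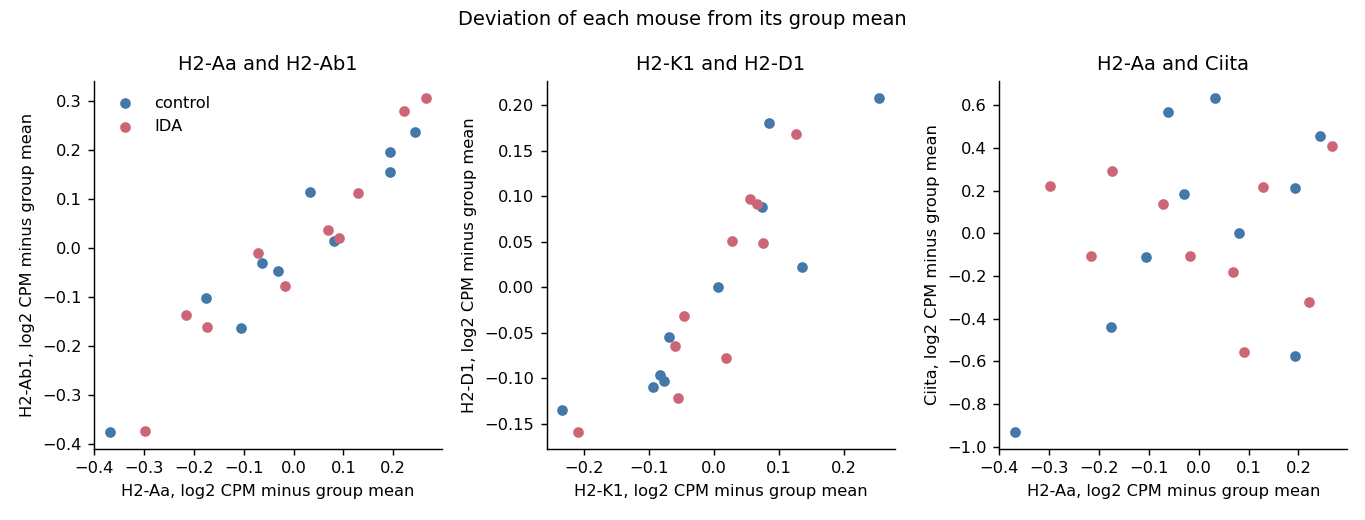
Deviation of each mouse's log2 CPM from its group mean for 3 pairs of genes, with control mice in blue and IDA mice in red. *H2-Aa* and *H2-Ab1*, and *H2-K1* and *H2-D1*, follow a line in both groups, whereas *Ciita* is scattered against *H2-Aa*.

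The genes whose deviations from the group means over 20 mice were most like those of the class II mean (the mean log2 CPM of its 4 structural genes) were *Gm12185* (r = 0.82), *Gm4956* (r = 0.80), *Penk* (r = 0.79) and *Dbh* (r = 0.79), followed by *Ramp1*, *Cxcl9*, *Dhrs7c* and *Tmod4* (r = 0.77 to 0.79). Those most like the class I mean (*H2-K1*, *H2-D1* and *B2m*) were *Ly6e* (r = 0.92), *Ifitm3* (r = 0.88), *Mrpl33* (r = 0.88) and *Psma2* (r = 0.87), then *Gpx4*, *Tmem9b*, *1810058I24Rik* and *Krtcap2* (r = 0.85 to 0.87). They are the highest of 13581 genes ranked and are given as a description. With the gene length correction, *Gm12185*, *Penk* and *Dhrs7c* stayed among the 8 genes most like the class II mean. *Ly6e*, *Gpx4* and *1810058I24Rik* stayed among the 8 most like the class I mean. The other genes named here did not, so most of both lists depended on the correction.

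Other genes of the pathway were followed in 8 lists. Of 64 genes in the table, 52 passed the filter, and among them 22 were higher and 15 lower in IDA. With the gene length correction, 12 were higher and 11 lower, and 10 were higher and 11 lower in both fits. The median log2 fold change of the 52 genes was 0.13, and 0.04 with the correction, beside 0.02 and 0.04 over all tested genes. Of all tested genes 35.0% were higher and 32.5% lower, and 31.5% and 23.5% with the correction. Without it, the share higher fell from 79.3% in the tenth with the shortest exons to 2.50% in the tenth with the longest. The counts of each list below, markers included, are to be read beside these shares. List sums, here and above, include any genes of the list that fell below the filter.

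For class I loading, 3 of 7 genes were higher and 1 lower in each fit, with *Tap2* and *Tapbp* higher in both. *Tapbp* (tapasin, which bridges the heavy chain to the transporter) went from 181 ± 13.4 to 214 ± 9.20 CPM (SD, n = 10 each), with a log2 fold change of 0.25 and 0.26 with the correction (adjusted p = 1.49e-05 and 2.11e-05, edgeR). *Tap2*, the partner of *Tap1*, rose by 0.23 (0.20 with the correction), with all 10 IDA mice above the control mean. *Erap1*, which trims peptides in the endoplasmic reticulum, was lower by both fits (-0.48 and -0.29). With GC content corrected as well, none of these 3 passed: *Tapbp* had 0.06 (adjusted p = 0.13), *Tap2* 0.02 (adjusted p = 0.71) and *Erap1* -0.08 (adjusted p = 0.063). In the immunoproteasome, the form of the proteasome that makes peptides suited to class I, 4 of 5 genes were higher, and 1 with the correction. The median exonic length of this list was 977 bp. *Psmb10* rose by 0.53 (adjusted p = 1.23e-06, edgeR) and by 0.28 with the correction (adjusted p = 8e-05). *Psmb8* (0.39) and *Psme2* (0.34) passed only without the correction, and *Psmb9* did not pass in either fit.

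Of the non-classical class I genes, 7 of 16 were tested, with 1 higher and 2 lower. *H2-T23*, which encodes Qa-1, a ligand of natural killer cell receptors, rose by 0.31 without the correction and had 0.07 with it. *Mr1*, which presents vitamin B metabolites, and *H2-T24* were lower in both fits (-0.30 and -0.33 for *Mr1*, -0.29 and -0.37 for *H2-T24*). *Mr1* did not pass with GC content corrected as well (-0.14, adjusted p = 0.088), nor *H2-T24* with library size as a covariate (-0.22, adjusted p = 0.082). *H2-Q2*, *H2-Q6*, *H2-Q7* and *H2-T9* were at 0 in all mice, and *H2-Q6*, *H2-Q7* and *H2-T9* overlap other genes over nearly all of their exons.

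In class II processing, 5 of 6 genes were higher and 0 lower, with 2 higher under the correction. *Ifi30*, a reductase of the endosome, rose by 0.44, *Ctsh* by 0.32 and *Ctsl* by 0.17, the last 2 being lysosomal proteases. Of these, *Ctsh* also passed with the correction (0.13, adjusted p = 0.00709, edgeR), and *Ctsl* passed once GC content was corrected too (0.20, adjusted p = 6.1e-05). Of 4 other class II genes tested, 2 were higher. *H2-Ob*, a chain of the peptide-loading inhibitor H2-O, rose by 0.52 in both fits (adjusted p = 0.0424 and 0.0485, edgeR). Without IDA mouse 5 it had 0.31 in both and did not pass (adjusted p = 0.13 and 0.14, edgeR). *H2-DMb2* rose by 0.91 (adjusted p = 0.00852, edgeR), which did not pass with the correction (0.59, adjusted p = 0.11). Both were scarce, at 2.45 and 0.83 CPM in control hearts, and *H2-DMa* and *H2-DMb1* did not pass in either fit.

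Among the 10 transcription factors and coactivators of MHC genes, 7 were lower and 3 higher, and with the correction 6 were lower and 2 higher. The acetyltransferase coactivators showed the largest changes of the list without the correction. *Crebbp* ran from 65.0 ± 17.8 CPM in control to 26.9 ± 7.95 CPM in IDA hearts, a log2 fold change of -1.28 (-0.79 with the correction, adjusted p = 1.56e-06 and 1.78e-05, edgeR). *Ep300* had -1.002 and -0.45. *Nlrc5* had -0.84 (adjusted p = 0.0018, edgeR), but -0.37 with the correction (adjusted p = 0.15). Without control mouse 9 these were -0.53 and -0.09. *Rfx5*, *Nfya*, *Nfyb* and *Creb1* were lower and *Rfxank* and *Rfxap* higher in both fits, so the 3 subunits of the RFX complex did not move in one direction. With GC content corrected as well, *Creb1* (-0.02, adjusted p = 0.74), *Nfyb* (-0.12, adjusted p = 0.064) and *Rfxap* (0.12, adjusted p = 0.10) did not pass. The median exonic length of the list was 3950 bp.

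In the interferon-gamma and IRF list, 3 of 8 genes were higher and 4 lower. *Irf8*, a factor of myeloid and B cells, was higher (0.29 and 0.31) and *Irf2* lower (-0.31 and -0.34) in both fits. *Jak2*, a kinase of the interferon-gamma receptor, was lower without the correction and not called with it (-0.34 and -0.05), and was called higher with GC content corrected as well (0.09, adjusted p = 0.019). *Jak1* was lower without it and higher with it. *Irf1* did not pass in either fit. Of the 5 co-stimulation genes, *Cd274* (PD-L1, an inhibitory ligand) had -1.10 and -0.95, and without control mouse 9 -0.85 and -0.71, and it was lower in all 4 fits. *Icam1*, an adhesion molecule, rose by 0.61 and 0.58.

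**Figure D5:**
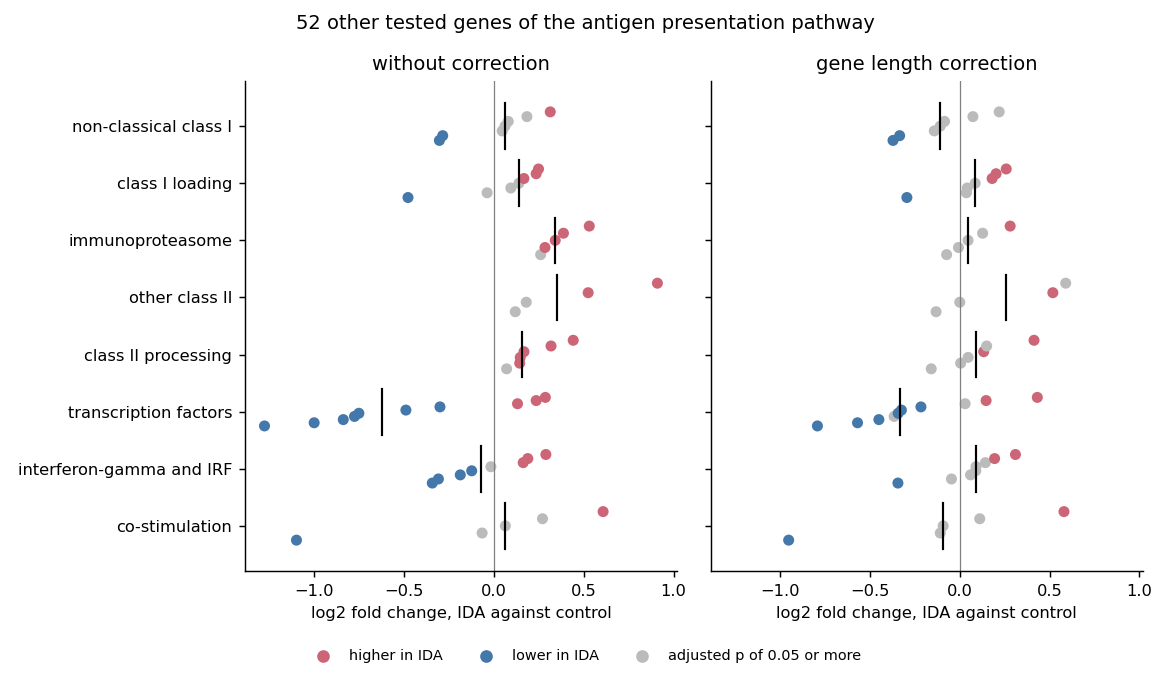
Log2 fold change of IDA against control for the 52 tested genes of the 8 pathway lists, as tested (left) and with the gene length correction (right). Points are genes, coloured by direction where the adjusted p was below 0.05, and black lines are list medians. The transcription factors have the lowest list median in both panels, and the immunoproteasome median moves from 0.34 to 0.05.

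Markers of the cells that carry class II molecules did not all move in one direction. All 6 tested B cell genes were higher in IDA, and 5 with the correction. Their list summed to between 6.14 and 13.04 CPM in control and between 10.1 and 40.6 CPM in IDA mice. *Cd79b*, a subunit of the B cell receptor, had a log2 fold change of 1.12 (0.87 with the correction). Of 16 macrophage genes, 7 were higher and 6 lower (5 and 3 with the correction), their sum lying between 894 and 1025 CPM in control mice and between 881 and 1048 CPM in IDA mice. *C1qa* (0.41 and 0.14) was higher, and *Mertk* (-0.93 and -0.81) and *Cd163* (-0.61 and -0.36) were lower. Of 5 tested dendritic cell genes, 2 were lower in both fits, *Zbtb46* (-0.59 and -0.49) and *Clec9a* (-0.37 and -0.28), and 0 were higher. *Flt3*, *Ccr7* and *Batf3* of this list fell below the filter and were not tested. *Ccr7* ran the other way, from a mean of 0.72 CPM in control to 2.46 CPM in IDA hearts. All 10 IDA mice lay above its control mean, whereas *Flt3* and *Batf3* had slightly lower means in IDA. With GC content corrected as well, *C1qa* (-0.02, adjusted p = 0.75) and *Clec9a* (-0.12, adjusted p = 0.38) did not pass, and with library size as a covariate *Zbtb46* did not (-0.29, adjusted p = 0.11). The dendritic list summed to between 36.7 and 54.3 CPM in control and between 27.9 and 41.9 CPM in IDA mice.

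For the other leukocytes, 3 of 5 pan-leukocyte genes were higher and 1 lower, and their sum lay between 149.8 and 187 CPM in control mice and between 139 and 256.4 CPM in IDA mice. Of 3 tested neutrophil genes 2 were higher, with sums from 4.11 to 17.97 and from 6.61 to 93.1 CPM. Of 2 tested T and NK cell genes 1 was higher, with sums from 4.85 to 7.87 and from 5.92 to 13.9 CPM. The part of these cells in the differences of the class II genes was not tested directly. With a pan-leukocyte score as a covariate, and no gene length correction, the calls of the 9 genes were the same, with 3 higher and 1 lower. That score is the mean of the 5 pan-leukocyte genes, which did not move in one direction. It is not specific to cells that carry class II molecules, so this fit is no test of their part.

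Within a diet, the class II mean was compared with the mean level of 6 leukocyte marker lists in 12 relations of log2 CPM, each over 10 mice. By Pearson's r, 0 of 12 passed a two-sided permutation test after adjustment (lowest adjusted p = 0.28), and 1 had an unadjusted p below 0.05, that of the T and NK cell genes in control mice (r = 0.65, rho = 0.52, permutation p = 0.041 and 0.13, adjusted 0.28 and 0.35). For the dendritic cell genes r was 0.20 in control and -0.08 in IDA mice. In IDA mice r was -0.54 for B cell genes (Spearman's rho = -0.53, permutation p = 0.11 and 0.12, adjusted 0.28 and 0.35) and -0.61 for macrophage genes (rho = -0.55, permutation p = 0.069 and 0.11, adjusted 0.28 and 0.35). Without the 2 farthest mice these r were -0.36 and -0.41, and within the 7 IDA mice of the lower stretch of library numbers they were -0.61 and -0.50. A negative r in IDA mice was not particular to these lists. T and NK cell, neutrophil and pan-leukocyte genes had r = -0.53, -0.53 and -0.44 (rho = -0.47, -0.50 and -0.47). Without the 2 farthest mice they had -0.08, 0.05 and -0.52, and within the lower stretch -0.80, -0.78 and -0.50. With the gene length correction the T and NK cell genes had -0.72 in IDA mice (permutation p = 0.017, adjusted 0.20). In control mice r was -0.22 for B cell genes (rho = -0.12, permutation p = 0.55 and 0.76, adjusted 0.78 and 0.86) and -0.09 for macrophage genes (rho = -0.07, permutation p = 0.80 and 0.86, adjusted 0.84 and 0.86).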

How the data were processed

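Per the labels and file headers, the authors sequenced RNA of whole hearts from 10 control and 10 IDA mice as 75-bp paired-end reads, aligned them to mm10 with STAR, removed duplicates, and deposited raw counts of read pairs on exons by gene (featureCounts 1.4.5-p1, unstranded). Totals ran from 6682177 to 8960688 per mouse. The methods state that 1 sample per group was excluded for contamination, without naming it. All 20 mice were therefore kept, so the 10 mice of each group may include that sample.

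The filter kept genes that reached 1 CPM in 10 or more mice, and these entered edgeR 4.0.16 in R 4.3.3 (TMM, quasi-likelihood test, diet as the only factor, adjusted p below 0.05). The gene length correction entered a loess curve (span 0.5) of each mouse's deviations on log2 exonic length as offsets. Log2 CPM used a prior count of 2. Correlations used 100000 permutations. Mice were housed several to a cage, and neither the labels nor the methods say which mice shared a cage or litter, so p-values measure the spread between these mice.

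The 9 genes and all lists were chosen with earlier results of these data known. Other named genes are up to 3 called genes with the largest change per list, the 8 genes most like each class mean, and markers. Alternatives were DESeq2 1.42.0, other normalizations, filters and covariates, and omission of each mouse. Scripts were tested on simulated data.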

Additional observations from a re-analysis of the deposited data

Results flagged for a closer look

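Levels of the 9 genes and of the pathway genes named for their change were examined in each diet, 62 groups of 10 mice in all, and 4 held a mouse whose distance to its nearest neighbour was above Dixon's critical value of 0.466 of the group's range. Chance flags about 5% of groups. Of the 4, 3 belonged to control mouse 9. It had 81.6 CPM of *Tap1*, where the next control mouse had 49.9, 48.8 CPM of *Nlrc5*, where the next had 16.7, and 81.2 CPM of *Cd274*, where the next had 32.9. The same mouse was the highest control for *Psmb9* (27.4 CPM, other controls 12.8 to 20.6) and *Irf1* (88.2 CPM, others 53.5 to 70.9), and for *H2-Aa*, *H2-Ab1* and *H2-Eb1*, where its distance from the others was small. For *H2-K1*, *H2-D1*, *B2m*, *Cd74* and *Ciita* it lay within the range of the other controls. The fourth was IDA mouse 5, with 7.75 CPM of *H2-Ob*, where the next IDA mouse had 3.85. Without that mouse the log2 fold change of *H2-Ob* was 0.31, and it did not pass edgeR's test (adjusted p = 0.13).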

How the results depend on the processing

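Counts of the 9 genes higher and lower in IDA (3 and 1) were the same with DESeq2, the RLE normalization, both filters, the pan-leukocyte covariate and each mouse left out, apart from *B2m*, which joined the higher genes with upper-quartile normalization and without control mouse 1, control mouse 2 or IDA mouse 5. They were 1 and 3 with the gene length correction, 0 and 3 with length and GC content (*H2-Ab1*, *Cd74* and *Ciita* lower), and 1 and 0 with library size as a covariate. Of the pathway genes, 22 were higher and 15 lower, against 12 higher with length, 14 higher and 8 lower with length and GC content. Choices added after the data were seen gave 0 members and 13 pathway genes higher with the correction on exonic bases shared with no other gene, 0 and 13 within the higher stretch of library numbers in the column names alone, and 0 members lower within the lower stretch alone. Without the length correction, *B2m* was also called higher within the lower stretch alone (0.16, adjusted p = 0.0217, edgeR). With the stretch as a covariate it was called higher too (0.11, adjusted p = 0.0486, edgeR). The correction on own bases left 1 member lower, as did the corrected fits with the stretch as a covariate and within either stretch, and within the higher stretch the corrected fit had 0 higher. Without 1 mouse, the corrected count of lower members was 1 to 3.

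The gene length correction reversed *B2m* (-0.21), *H2-Aa* (-0.18), *H2-Ab1* (-0.18), *H2-Eb1* (-0.067), *Cd74* (-0.056) and *Tap1* (0.044). With own bases these were -0.20, -0.18, -0.18, -0.060, -0.052 and 0.052, and *H2-D1* was -0.061. With length and GC content, *H2-K1* was -0.073, *B2m* -0.052, *H2-Aa* -0.10, *H2-Ab1* -0.30, *H2-Eb1* -0.090 and *Cd74* -0.17. With library size as a covariate, *B2m* was -0.032, *H2-Aa* -0.029, *H2-Ab1* -0.014 and *H2-Eb1* -0.0091. *Tap1* was 0.027 with upper-quartile normalization, 0.0015 with no filter and 0.18 within the higher library numbers, and lay from -0.061 to 0.17 without 1 mouse. Corrected values of *Tap1* were -0.10 within the lower numbers and -0.013 to 0.21 without 1 mouse, and those of *H2-K1* -0.0013 with the stretch as a covariate, -0.034 within the higher numbers and -0.016 to 0.024 without 1 mouse. Why these values moved was not tested.

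The labels state no pairing of same-numbered mice, and correlation cannot exclude a shared cage or litter. Of the 10 same-numbered pairs, 3 correlated above 0.1 (range -0.28 to 0.26), and 3 mice matched best with their own number. With the replicate number as a block the members' counts stayed at 3 and 1, and *Tap1* was 0.048. With the block and the gene length correction, 1 member was higher and 1 lower, and 10 pathway genes were higher. In that block fit *B2m* was -0.21, *H2-Aa* -0.18, *H2-Ab1* -0.18, *H2-Eb1* -0.066, *Cd74* -0.056 and *Tap1* 0.090. As all 9 members passed the filter, the permutation test of CPM planned for members below it was not run. Relations of class II genes to marker lists passed in 0 of 12 cases with the correction too, where 3 had an unadjusted p below 0.05. *Ciita* rested on the fewest read pairs, at 18 to 83 read pairs per mouse.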
